A study of Drosophila melanogaster with 46 samples.

Results

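The retrotransposons gypsy, gtwin, ZAM and Idefix were followed through small RNA-seq of OSC (ovarian somatic cells), a Drosophila melanogaster cell line derived from the somatic follicle layer of the ovary. They were taken by name from a table of 124 transposable elements (TEs), in which all 4 were present, each with a sense and an antisense value per library. The libraries were of 3 kinds, with 2 of each: small RNAs that precipitated with CG9754 (CG9754-IP; the protein is also called Silencio or Panoramix), small RNAs that precipitated with Piwi (Piwi-IP), and the input small RNAs. The other 40 of the 46 samples of the series, among them 17 mRNA-seq, 18 ChIP-seq and 5 small RNA samples from knockdown cells, were not analysed here. The titles of the 6 libraries name no siRNA, although a treatment note common to all samples of the series describes siRNA transfection, with analysis after 4 days. The antibody or tag used for the precipitations is not given in the sources used here, and a mock precipitate was not analysed here. The genotype field repeats the name of the precipitate and reads "none" for input.

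All 4 elements are errantiviruses, LTR retrotransposons that resemble vertebrate retroviruses in carrying an envelope gene. Gypsy is the founding member and gtwin is a close relative of it; ZAM and Idefix were first noticed as elements that move together in an unstable fly line. In ovaries these elements are held silent in the follicle cells by flamenco, an X-linked locus of old insertions lying mostly in reverse, whose long transcript is cut into piRNAs antisense to the elements. Such piRNAs guide Piwi, a nuclear Argonaute protein, to nascent TE transcripts. CG9754 acts with Piwi to link that recognition to silent chromatin. Sense small RNAs have the sequence of the element's own transcript.

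Values are deposited RPM (reads per 1000000), and their steps imply totals of 26138400 and 19874200 reads for CG9754-IP, 15064800 and 12493500 for Piwi-IP, and 18861900 and 15327200 for input. The antisense sum over all 124 TEs was 181254 and 175180 RPM in CG9754-IP, 238542 and 236313 RPM in Piwi-IP, and 211663 and 211337 RPM in input. The sense sum was 18965 and 18208 RPM in CG9754-IP, 13234 and 13051 RPM in Piwi-IP, and 12201 and 12371 RPM in input. The paired libraries of a group differed by more than sampling noise: chi-square over its degrees of freedom was 266.5 for CG9754-IP, 10.3 for Piwi-IP and 7.10 for input. A list of 7 TEs commonly described as germline targets (HeT-A, TAHRE, I-element, F-element, Doc, GATE and diver) had 0 members at 0 RPM on either strand. Its antisense sum ranged from 4123 to 5107 RPM over the 6 libraries, most of it F-element and Doc, and the telomeric elements HeT-A and TAHRE had 0.80 to 5.55 RPM. The labels do not state that replicates are separate cultures, so p-values measure the spread between these libraries, which may be technical. In bulk RNA, fewer cells with a small RNA and less of it per cell cannot be told apart. Element lengths are not in the files, and therefore RPM levels are compared between libraries and not between elements.

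Antisense small RNAs of the 4 elements together made up 29.2% and 33.1% of the antisense TE signal in CG9754-IP, 27.3% and 26.8% in Piwi-IP, and 26.4% and 26.0% in input. Beneath these similar sums, the elements parted in CG9754-IP, as did most pairs of TEs (69.3%, given below). In RPM, gypsy and gtwin lay near Piwi-IP or input, while ZAM and Idefix were lower. As a mean share of the antisense TE signal, gypsy was higher, at 9.65% in CG9754-IP, 6.49% in Piwi-IP and 6.18% in input. Gtwin was too, at 17.2%, 14.8% and 14.2%. ZAM (1.15%, 1.37% and 1.38%) and Idefix (3.12%, 4.35% and 4.46%) were lower on that scale as well.

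Gypsy had 15292 and 19026 antisense RPM in CG9754-IP, 15594 and 15248 RPM in Piwi-IP, and 13132 and 12993 RPM in input. Both CG9754-IP values lay above both input values, which held for 25.3% of the 75 TEs tested below, and they overlapped those of Piwi-IP. Gtwin had 29622 and 31796 antisense RPM in CG9754-IP, 35820 and 34507 RPM in Piwi-IP, and 30356 and 29723 RPM in input. Its CG9754-IP libraries overlapped input and lay below both Piwi-IP libraries.

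ZAM had 1931 and 2161 antisense RPM in CG9754-IP, 3287 and 3235 RPM in Piwi-IP, and 3028 and 2802 RPM in input. Idefix had 6106 and 5026 antisense RPM in CG9754-IP, 10338 and 10303 RPM in Piwi-IP, and 9417 and 9440 RPM in input. For both elements the CG9754-IP libraries were the lowest, with no overlap with the other groups; 66.7% of the 75 TEs tested were lower without overlap against Piwi-IP, and 54.7% against input. The order of the group means was CG9754-IP, Piwi-IP, input for gypsy, Piwi-IP, CG9754-IP, input for gtwin, and Piwi-IP, input, CG9754-IP for ZAM and Idefix. The neighbours in that order that overlapped between libraries were CG9754-IP and Piwi-IP for gypsy and CG9754-IP and input for gtwin.

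**Figure D1:**
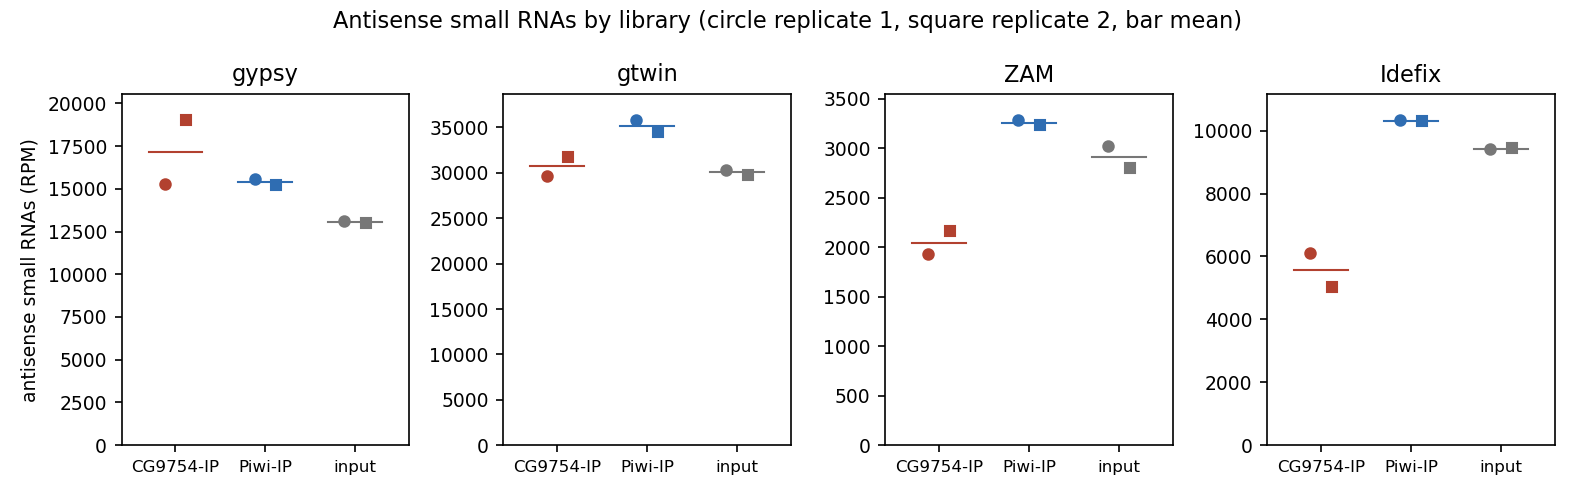
Antisense small RNAs of gypsy, gtwin, ZAM and Idefix in RPM (vertical axes from 0, 1 panel per element) in 2 libraries each of CG9754-IP, Piwi-IP and input; circles and squares are replicates 1 and 2 and bars are means. ZAM at 1931 and 2161 RPM and Idefix at 6106 and 5026 RPM in CG9754-IP lie below all of their other libraries, while gypsy and gtwin each overlap another group.

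The comparison of CG9754-IP with Piwi-IP sets the level of each TE in these precipitates side by side. Values summed per TE cannot show whether both hold the same small RNA sequences. Limma's test took in the 75 TEs that averaged 10 antisense RPM or more, on the log2(RPM + 1) scale. With Benjamini-Hochberg adjustment, 53.3% of TEs were lower in CG9754-IP and 9.33% were higher, at an adjusted p under 0.05. This balance depended on the scaling: 21.3% were lower and 21.3% higher at a common TE total, and 22.7% were lower and 13.3% higher with scaling by median ratios. Among the 4 elements 3 were lower and 0 higher. Idefix averaged 5566 ± 764 in CG9754-IP and 10321 ± 25 RPM in Piwi-IP (SD, n = 2 each), a log2 difference of −0.90 ± 0.098 (SE; limma adjusted p = 0.00124). ZAM averaged 2046 ± 163 in CG9754-IP and 3261 ± 37 RPM in Piwi-IP, a log2 difference of −0.67 ± 0.080 (limma adjusted p = 0.00142). The call for gtwin was less firm, at 30709 ± 1537 in CG9754-IP and 35163 ± 928 RPM in Piwi-IP, a log2 difference of −0.20 ± 0.058 (limma adjusted p = 0.0300). Gypsy averaged 17159 ± 2640 in CG9754-IP and 15421 ± 244 RPM in Piwi-IP and did not pass (0.15 ± 0.11, interval −0.12 to 0.41, limma adjusted p = 0.267).

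CG9754-IP held less antisense TE signal as a whole. The median log2 difference over the tested TEs was −0.38, and it was −0.03 once all libraries had been brought to 1 common TE total. On that scale Idefix (−0.55, limma adjusted p = 0.00554) and ZAM (−0.33, limma adjusted p = 0.0351) remained lower in CG9754-IP. Gypsy passed as higher (0.49, limma adjusted p = 0.0251), and gtwin changed sign without passing (0.15, limma adjusted p = 0.0944). With scaling by median ratios instead, Idefix was the 1 element of the 4 past the threshold (−0.58, limma adjusted p = 7.8e-04), beside ZAM at −0.35, gtwin at 0.13 and gypsy at 0.47. Gypsy also turned on the library used: its log2 difference was 0.30 without CG9754-IP replicate 1 and −0.01 without replicate 2. With 1 CG9754-IP library left, the spread came from Piwi-IP and input alone, so no p-value is given. The call for gtwin was lost without any 1 of the 4 Piwi-IP and input libraries (limma adjusted p = 0.0893 to 0.177), where the input libraries count because all groups share 1 estimate of the spread. It was also lost with no filter (limma adjusted p = 0.0571), in a fit of those groups alone (0.0881) and without the trend (0.0619).

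Against input, 33.3% of TEs were lower in CG9754-IP and 12% were higher on the antisense strand. Here too the balance moved with the scaling, to 20% lower and 25.3% higher at a common TE total and 21.3% lower and 14.7% higher with scaling by median ratios. Among the 4 elements Idefix and ZAM fell and gypsy rose. The log2 difference was −0.77 ± 0.098 for Idefix (limma adjusted p = 0.00346), −0.51 ± 0.080 for ZAM (limma adjusted p = 0.00536) and 0.38 ± 0.11 for gypsy (limma adjusted p = 0.0337). Gtwin averaged 30709 ± 1537 RPM in CG9754-IP and 30040 ± 447 in input, a difference of 0.03 ± 0.058 with an interval of −0.11 to 0.18. Without CG9754-IP replicate 1 that difference was 0.08. At a common TE total, gypsy (0.57) and gtwin (0.22) passed as higher and ZAM (−0.33) and Idefix (−0.58) as lower, with limma adjusted p-values of 0.0145, 0.0392, 0.0350 and 0.00478 in that order. By the median ratio, Idefix alone of the 4 passed. The call for gypsy was lost without either Piwi-IP or either input library (limma adjusted p = 0.109 to 0.140), with no filter (0.0691), and in a fit of those groups alone (0.108). This contrast uses the same CG9754-IP libraries as that against Piwi-IP, so both share their errors.

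**Figure D2:**
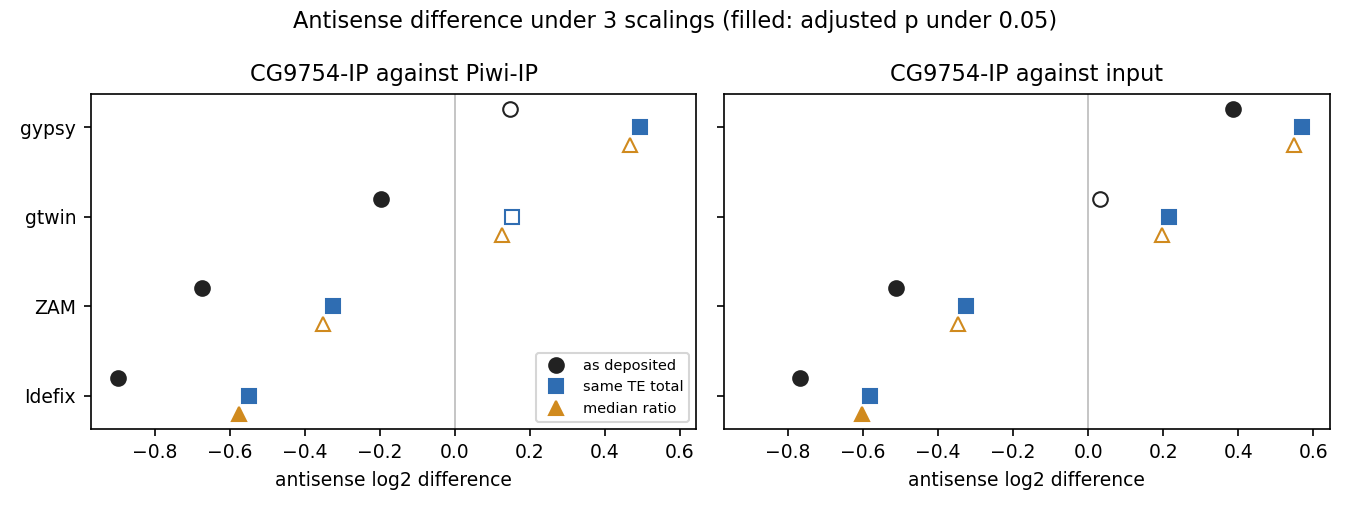
Antisense log2 differences of CG9754-IP against Piwi-IP (left) and against input (right) for the 4 elements, as deposited, rescaled to the same TE total and rescaled by the median ratio; filled symbols have a limma adjusted p under 0.05. Idefix lies between −0.90 and −0.55 on the left under the 3 scalings and is filled in each, while gtwin moves from −0.20 to 0.15 across 0.

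A ratio of 2 elements within a library does not depend on how the library was scaled, and element length cancels in its change. The antisense ratio of gypsy to Idefix was 2.50 and 3.79 in CG9754-IP, 1.51 and 1.48 in Piwi-IP, and 1.39 and 1.38 in input. The ratio of gtwin to ZAM was 15.3 and 14.7 in CG9754-IP, 10.9 and 10.7 in Piwi-IP, and 10.03 and 10.6 in input. In both ratios the CG9754-IP libraries were the highest. Of the 6 pairs, the 4 that set gypsy or gtwin against ZAM or Idefix, and gypsy against gtwin, did not overlap between CG9754-IP and either other group. The same held for 69.3% of the 2775 pairs of the 75 TEs tested. The ratio of ZAM to Idefix did, at 0.316 and 0.430 in CG9754-IP, 0.318 and 0.314 in Piwi-IP and 0.322 and 0.297 in input. An exact permutation test of 2 libraries against 2 cannot give a two-sided p below 0.333, which is what the 5 pairs without overlap reached. The largest change was that of gypsy to Idefix, 2.06-fold higher in CG9754-IP than in Piwi-IP and 2.22-fold higher than in input, and gypsy to gtwin changed by 1.27-fold and 1.28-fold.

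Antisense levels in Piwi-IP lay slightly above input for each element. The means were 1.18-fold input for gypsy, 1.17-fold for gtwin, 1.12-fold for ZAM and 1.09-fold for Idefix, with no overlap between the libraries of the groups, which held as well for 80% of the 75 TEs tested. None of the 4 passed limma with all 6 libraries in the fit (log2 differences of 0.13 to 0.24, adjusted p = 0.142 to 0.383), where 1 TE of 75 (1.33%) passed; gtwin had an unadjusted p under 0.05 (0.00949). In a fit of the 4 Piwi-IP and input libraries alone all 4 elements passed as higher, with limma adjusted p-values of 4.7e-04 to 0.0143, among 45 TEs called. A fit without either CG9754-IP library takes its spread from the same Piwi-IP and input libraries and is not a separate test. At a common TE total the differences were 0.08 for gypsy, 0.06 for gtwin, −0.03 for Idefix and −3e-04 for ZAM, and 0 of 4 passed limma.

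The sense strand gave a different picture: small RNAs with the sequence of the elements' own transcripts rose in CG9754-IP for all 4 elements. Gypsy, the element of the 4 with a sense level well above 1 RPM everywhere, had 696 and 790 sense RPM in CG9754-IP, 65.3 and 69.8 RPM in Piwi-IP, and 73.7 and 80.6 RPM in input. These values rest on 872 to 18183 reads per library, and the CG9754-IP libraries stand about an order of magnitude above the rest.

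Gtwin had 19.4 and 21.7 sense RPM in CG9754-IP, 1.93 and 1.28 RPM in Piwi-IP, and 1.86 and 2.22 RPM in input. These are 507 and 432 reads in CG9754-IP, 29 and 16 reads in Piwi-IP, and 35 and 34 reads in input. Small as the Piwi-IP and input counts are, their 95% counting intervals (exact Poisson, which cover counting error only) reach no higher than 3.10 RPM, far below the lowest bound of 17.7 RPM in CG9754-IP.

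ZAM had 9.79 and 10.4 sense RPM in CG9754-IP, 1.39 and 1.2 RPM in Piwi-IP, and 1.27 and 0.85 RPM in input, from 256 and 206, 21 and 15, and 24 and 13 reads. Idefix had 11.9 and 13.8 sense RPM in CG9754-IP, 1.26 and 1.92 RPM in Piwi-IP, and 1.17 and 1.5 RPM in input, from 310 and 275, 19 and 24, and 22 and 23 reads. In each of the 4 elements both CG9754-IP libraries lay above all other libraries, as did 50.6% of the 89 tested TEs against Piwi-IP and 52.8% against input, while Piwi-IP and input overlapped in gtwin, ZAM and Idefix.

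**Figure D3:**
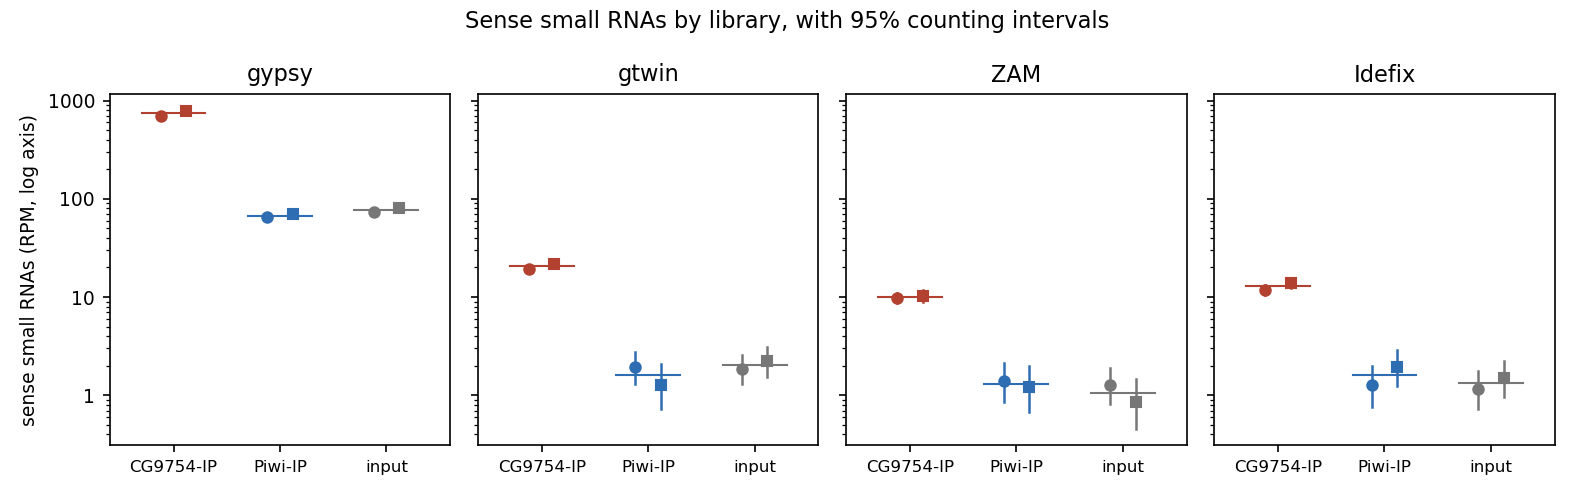
Sense small RNAs of the 4 elements in RPM on a shared log axis, 1 panel per element, in 2 libraries each of CG9754-IP, Piwi-IP and input; vertical lines are 95% counting intervals of single libraries and bars are means. Each CG9754-IP library lies above all Piwi-IP and input libraries, from 9.79 RPM for ZAM to 790 RPM for gypsy.

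Sense levels were tested by limma in the 89 TEs whose strands summed to a mean of 10 RPM or more, a filter that the 4 elements pass through their antisense level. A filter on the sense strand itself would have kept gypsy alone of the 4. Against Piwi-IP, 44.9% of TEs were higher in CG9754-IP and 15.7% lower, and all 4 elements were higher. The log2 difference was 3.44 ± 0.13 for gypsy (limma adjusted p = 5.1e-15), 3.06 ± 0.20 for gtwin (4.5e-11), 2.43 ± 0.19 for Idefix (4.9e-10) and 2.27 ± 0.18 for ZAM (4.5e-10), beside a median of 0.19 over all tested TEs. From highest to lowest they ranked 3, 4, 11 and 13 of 89 in that order. With scaling by median ratios the 4 passed with limma adjusted p-values of 2.0e-07 to 1.1e-05, so the size of these p-values depends on the fit. On the log2(RPM + 1) scale the change of a low element is understated, and the ratios of the group means were 11 for gypsy, 12.8 for gtwin, 8.08 for Idefix and 7.77 for ZAM.

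Against input, 46.1% of TEs were higher in CG9754-IP and 14.6% lower on the sense strand, and all 4 elements were again higher, with log2 differences of 3.25 for gypsy, 2.83 for gtwin, 2.57 for Idefix and 2.43 for ZAM (limma adjusted p = 1.5e-14 to 2.5e-10). The ratios of the group means were close to each other, at 9.62 for gypsy, 10.1 for gtwin, 9.64 for Idefix and 9.51 for ZAM. Each of the 6 sense ratios between the elements overlapped between CG9754-IP and input, and they changed by a factor of 0.950 to 1.05. Gypsy to gtwin, for instance, was 35.9 and 36.4 in CG9754-IP against 39.7 and 36.4 in input. Against Piwi-IP, 4 of the 6 did not overlap: gtwin to ZAM was 1.68-fold higher in CG9754-IP, gtwin to Idefix 1.59-fold, gypsy to ZAM 1.41-fold and gypsy to Idefix 1.33-fold. Over the 3570 pairs of tested TEs with no sense value at 0, 84% did not overlap against Piwi-IP and 83% against input. With 13 to 35 sense reads of gtwin, ZAM or Idefix in an input library, differences between the elements smaller than the counting error were not detectable. The folds against Piwi-IP rest on 15 to 29 such reads per Piwi-IP library, and gtwin to Idefix was 1.53 in replicate 1 and 0.667 in replicate 2. The germline list, set beside this, had sense sums of 786 and 764 RPM in CG9754-IP, 596 and 597 RPM in Piwi-IP, and 528 and 560 RPM in input. Of its 7 members, I-element, F-element and Doc had both CG9754-IP libraries above all others on the sense strand, diver had both below, and 3 overlapped. On the antisense strand both CG9754-IP libraries of HeT-A and TAHRE lay above all others, those of Doc and I-element lay below, and 3 members overlapped. The part of these elements in the result was not tested.

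All 4 elements passed as higher in CG9754-IP on the sense strand, against both Piwi-IP and input. The calls held under both rescalings, without each Piwi-IP or input library in turn, with no filter and with either other pseudocount. Without a CG9754-IP library only differences are given. The median of the 4 against Piwi-IP was 2.83 without replicate 1 and 2.65 without replicate 2, and against input 2.79 and 2.61. Piwi-IP and input were not told apart on this strand. The log2 differences were −0.19 for gypsy, −0.23 for gtwin, 0.14 for Idefix and 0.16 for ZAM (limma adjusted p = 0.729 to 0.878; 0 of 4 with an unadjusted p under 0.05), where 3 of 89 TEs (3.37%) passed. Gypsy was the 1 element of the 4 whose Piwi-IP libraries both lay below input, as in 10.1% of TEs.

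The strands of an element were next set against each other within a library. Gypsy was the least one-sided of the 4: sense reads made up 4.35% and 3.99% of its small RNAs in CG9754-IP, 0.417% and 0.456% in Piwi-IP, and 0.558% and 0.617% in input. For ZAM the share was 0.505% and 0.477% in CG9754-IP, 0.0424% and 0.0371% in Piwi-IP, and 0.0420% and 0.0303% in input. For Idefix it was 0.194% and 0.275% in CG9754-IP, 0.0122% and 0.0186% in Piwi-IP, and 0.0124% and 0.0159% in input.

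Gtwin was the most one-sided, with 0.0654% and 0.0683% sense in CG9754-IP, 0.0054% and 0.0037% in Piwi-IP, and 0.0061% and 0.0075% in input. Even in CG9754-IP, antisense reads thus remained above 95% for each element. The 95% Wilson intervals of the CG9754-IP libraries lay above those of all other libraries in each of the 4 (62.9% of TEs had a strand ratio higher without overlap against Piwi-IP, and 65.2% against input); that of gtwin replicate 1 ran from 0.0600% to 0.0714%, against 0.0053% to 0.0104% for input replicate 2. The TEs other than these 4 had a sense share of 12.4% and 12.9% in CG9754-IP, 7.05% and 6.98% in Piwi-IP, and 7.22% and 7.28% in input.

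**Figure D4:**
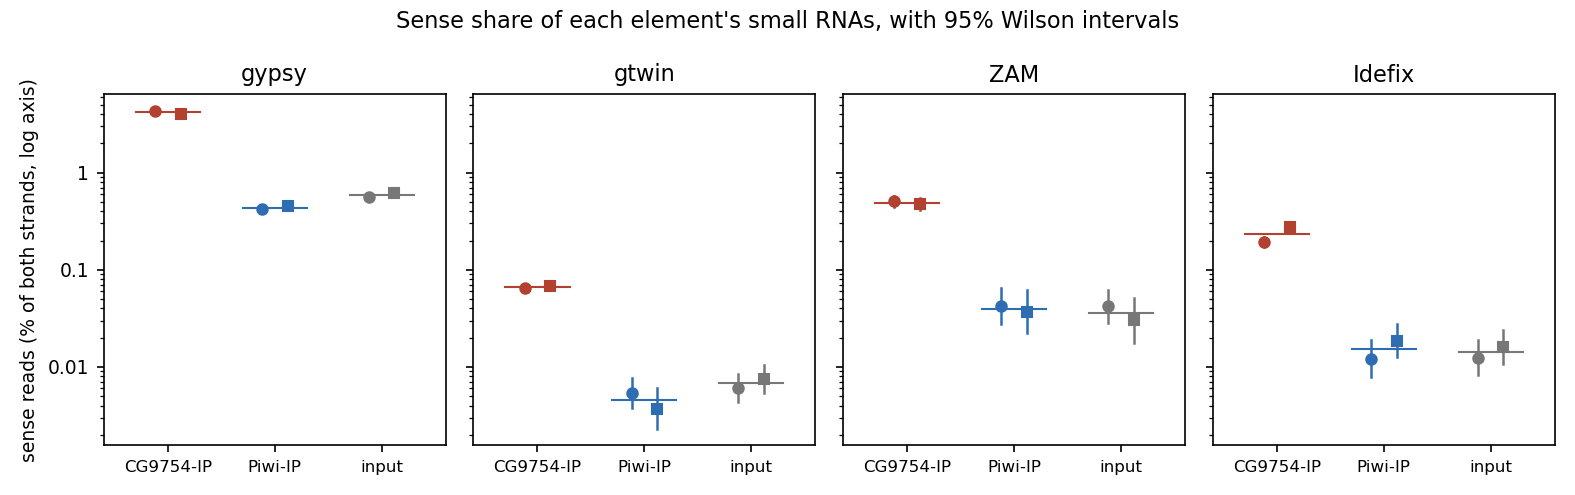
Sense reads as a percentage of both strands for the 4 elements, on a shared log axis, in 2 libraries each of CG9754-IP, Piwi-IP and input; vertical lines are 95% Wilson intervals and bars are means. The order gypsy, ZAM, Idefix, gtwin is the same in each library, and each CG9754-IP library is the highest of its element.

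The mean sense share in CG9754-IP was 9.55-fold that of Piwi-IP for gypsy, 14.7-fold for gtwin, 12.4-fold for ZAM and 15.2-fold for Idefix. Against input it was 7.10-fold for gypsy, 9.85-fold for gtwin, 13.6-fold for ZAM and 16.6-fold for Idefix. In deposited RPM, higher sense and lower antisense values both entered this change for ZAM and Idefix, and for gypsy and gtwin it was mostly sense. With scaling by median ratios the lower antisense level of ZAM did not pass (limma adjusted p = 0.125 against Piwi-IP and 0.123 against input). Tested as log2((sense + 1)/(antisense + 1)), the ratio rose against Piwi-IP by 3.29 for gypsy, 3.26 for gtwin, 3.32 for Idefix and 2.94 for ZAM (limma adjusted p = 3.7e-06 to 2.3e-05), where 58.4% of 89 TEs rose and 20.2% fell, with a median of 0.61. Against input it rose by 2.80 to 3.34 (limma adjusted p = 7.7e-06 to 2.4e-05), where 53.9% of TEs rose and 18% fell. Between Piwi-IP and input, 0 of the 89 TEs passed limma (12 with an unadjusted p under 0.05). Gtwin (−0.46, limma adjusted p = 0.170) and gypsy (−0.43, limma adjusted p = 0.174) were among those 12.

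**Figure D5:**
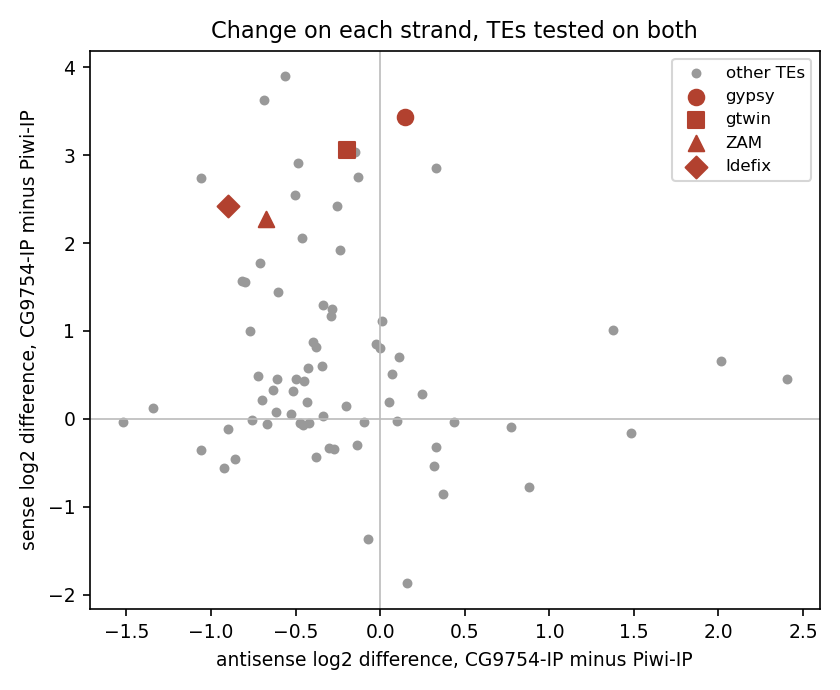
Log2 difference of CG9754-IP minus Piwi-IP on the antisense strand (horizontal) and the sense strand (vertical) for the 75 TEs tested on both; red symbols are the 4 elements and grey points the other 71 TEs. The 4 lie between 2.27 and 3.44 on the sense axis, and between −0.90 (Idefix) and 0.15 (gypsy) on the antisense axis.

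Other elements of the gypsy group, LTR elements related to these 4, give the setting. A list of 12 was taken, all of them in the table and 11 of them tested (Burdock was below the filter). It is a selection: gypsy5 is on it, and the other numbered gypsy elements are not. Those tested on the antisense strand had log2 differences against Piwi-IP of −0.29 (gypsy2), 0.11 (gypsy3), −0.48 (gypsy4), 0.01 (gypsy6), −0.23 (gypsy10) and −0.10 (gypsy11) in CG9754-IP. On the antisense strand, 8 of the 11 fell and 1 rose in CG9754-IP against Piwi-IP, with a median log2 difference of −0.71, beside −0.44 for the median of the 4. Tirant (−1.34) and rover (−1.06) fell most, and springer (2.02) rose. After rescaling to the same TE total 5 of the 11 fell and 2 rose. Against input 6 fell and 1 rose as deposited, with a median of −0.48. Of those past the threshold, rover (−0.88) and Quasimodo (−0.69) fell most, and springer (1.99) rose. Tirant, at −0.90, did not pass (limma adjusted p = 0.0678).

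On the sense strand, 9 of the 11 rose in CG9754-IP against Piwi-IP and 1 fell, with a median of 1.56, beside 2.74 for the 4. On the log2(RPM + 1) scale HMS-Beagle (3.03) and rover (2.74) rose most, and Transpac (−0.86) fell. That scale understates the change of low elements. Gypsy5, at 1.78, had 2.64 and 2.87 sense RPM in CG9754-IP against 0.20 and 0 RPM in Piwi-IP. Against input 9 of the 11 rose and 1, Transpac (−0.78), fell, with a median of 1.57. HMS-Beagle (3.01) and rover (2.28) led on the same scale.

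The TEs whose profile was most like that of each element were sought by the mean absolute difference over 12 values, log2(RPM + 1) in 6 libraries on 2 strands, each strand centred on its own mean. For gypsy these were HMS-Beagle (0.155), gtwin (0.185) and blood (0.220), beside a median of 0.839 over the 88 other TEs. For gtwin they were HMS-Beagle (0.0901), HMS-Beagle2 (0.139) and blood (0.150), beside a median of 0.715. ZAM was nearest to the telomeric element TART-C (0.128), Idefix (0.163) and gypsy5 (0.167), beside a median of 0.585. Idefix was nearest to rover (0.139), ZAM (0.163) and HMS-Beagle2 (0.188), beside a median of 0.647. By this measure gtwin was among the 3 nearest of gypsy, and ZAM and Idefix were each among the 3 nearest of the other. The libraries are shared by all TEs, so these distances describe the 6 libraries and carry no test.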

How the data were processed

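The authors deposited 1 table with sense and antisense values of 124 TEs in 6 libraries. The headers name no unit. The deposited values were taken to be RPM, because each library has 1 step of which 100% of its values are whole multiples (tolerance 0.02 reads); 1000000 over that step is the implied total. The submitters' processing notes list dm3 as build and, as tools, bedtools 2.16.1, SAMtools 0.1.16, Bowtie 0.12.7 and cutadapt 1.0; no roles are stated. Size range, mismatches and the treatment of reads that match several TEs are not given in the sources used here. Close relatives, gypsy and gtwin among them, may therefore share reads. Read counts are RPM divided by the step. A count of 0 allows up to 0.115 to 0.240 RPM (3 reads); intervals and this floor cover counting error only.

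Values were tested with limma 3.58.1 in R 4.3.3 (lmFit and trended eBayes) after a log2(RPM + 1) transform; all 6 libraries entered a single model of the groups, with 3 two-sided contrasts and Benjamini-Hochberg adjustment over all TEs tested. TEs averaging 10 RPM or more entered, on the antisense strand for the antisense test and on both strands summed for the sense and ratio tests. Libraries were grouped by the precipitate their titles name. Alternatives covered 2 other scalings, the filter, the pseudocount, the groups fitted, a replicate block, the trend and each library left out. Counts, intervals and plots used Python 3.11.15, scipy 1.17.1, numpy 2.4.6, pandas 2.3.3 and matplotlib 3.10.9. The 4 elements, the gypsy-group and germline lists, the filters and the alternatives were chosen with earlier results of these data known. Named besides the 4 elements are the 2 largest rises and falls past the threshold among the gypsy-group list in each contrast and the 3 most similar TEs per element.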

Additional observations from a re-analysis of the deposited data

How the results depend on the processing

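The sense and strand-ratio calls of the 4 elements in CG9754-IP held under each alternative that kept both CG9754-IP libraries and could be run. Idefix was lower on the antisense strand in each of these. The sense filter of 10 RPM leaves out gtwin, ZAM and Idefix. A count test on reads was planned and not run, because the check of the unit had too few low values per column. The read counts and intervals given here assume that the step of a library is 1 read. Depth limits the sense values of gtwin, ZAM and Idefix, which rest on 13 to 35 reads per library in Piwi-IP and input. The antisense log2 difference of gtwin against Piwi-IP changed sign with a common TE total (0.15) and with median-ratio scaling (0.13), since each adds 1 constant per library on the log scale.

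With rescaling by the median ratio, 27 TEs passed on the antisense strand against Piwi-IP in place of 47, and 1 of the 4 elements in place of 3, against Piwi-IP and against input alike. With the strand-specific filter, which tests fewer TEs, 34 passed on the sense strand against input (54 in the wider set), and 43 and 41 on the strand ratio against Piwi-IP and input (70 and 64). Without 1 library, the elements called on the antisense strand numbered 2 to 4 against Piwi-IP and 2 to 4 against input. TEs called against input ranged from 14 (without input replicate 2) and 19 (without input replicate 1) to 57 (without CG9754-IP replicate 1) on the antisense strand, and from 42 (without input replicate 2) to 68 on the strand ratio.

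Counts in Piwi-IP against input were small and unsteady. On the antisense strand 1 TE passed, 3 with no filter, 0 with a filter of 100 RPM and 45 in the fit of those groups alone, in which all 4 elements passed. Without any 1 input or Piwi-IP library the count was 0, with 0 of the elements. Without a CG9754-IP library the spread came from Piwi-IP and input alone, as in the fit of those groups. On the sense strand 3 passed, 0 with a filter of 100 RPM or the groups alone, and 1 with a pseudocount of 10 RPM. Without 1 Piwi-IP or input library, 1 to 3 passed on that strand. On the strand ratio 0 passed, 2 with the strand-specific filter or the groups alone, and 0 without any 1 Piwi-IP or input library. With a pseudocount of 10 RPM 1 passed (gtwin, −0.28), as many as with the replicate block or without the trend. The fit with all 6 libraries includes the spread of the CG9754-IP pair, which differed most, and the fit of Piwi-IP and input alone does not. A TE that did not pass in the former is therefore not shown to be alike in Piwi-IP and input. What each setting contributed to these shifts was not tested.

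With the replicate number as a block, 45 TEs passed on the antisense strand against Piwi-IP and gtwin did not (limma adjusted p = 0.0860); the other calls of the 4 elements were the same. Deviations of same-numbered libraries correlated at 0.086, 0.0345 and 0.0337 between the groups, and the libraries were not treated as paired; the labels do not say whether same-numbered libraries share a culture or day.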
